A study of Rattus norvegicus with 36 samples.

Results

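Egr1, Egr2, Nr4a1, Nr4a2, Nr4a3 and Klf6 are transcription factor genes of the immediate early class, measured here in rat skeletal muscle after resisted contractions. They were found as every probe set whose only platform gene symbol, updated through the Entrez identifier, was 1 of these 6 names, 6 of the 4736 genes named on the array in that way. That gave 13 of the 8799 probe sets on the array: 4 for Egr1, 3 for Nr4a3, 2 each for Nr4a1 and Nr4a2, and 1 each for Egr2 and Klf6. All 13 were among the 6707 probe sets tested. They were found by gene name, but the 6 genes and the gene lists below were chosen with earlier results of these data known. Counts of them set beside shares of all probe sets are thus descriptions. The probe set with the highest mean signal stands for its gene below, and the others are given beside it.

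The study placed muscle RNA on 36 single-colour arrays, and names the muscle by the source label "ta" alone. Muscle collected 6 h after the contractions gave polysomal RNA, the transcripts carried by several ribosomes, from 4 numbered samples and total RNA from 4. Muscle collected at 1 h gave polysomal RNA from 2 numbered samples and total RNA from 2. Of muscle with no contractions in its labels, 2 numbered samples are titled 1hr polysome but are described without polysomes (the control titled 1hr polysome), and 4 are polysomal in title and description (the polysomal control). Each number has 2 arrays, whose log2 values were averaged. The descriptions of both controls give 1 h, so the polysomal control is not a labelled 6 h control, and the 6 h total group has no control of its own fraction. The labels give no strain, sex or age, and do not say whether numbers are separate animals or whether both arrays of a number come from separate muscle. A p-value here is thus set by differences among samples that may be technical repeats.

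Values are signals on a linear scale, and signals under a floor of 129.5 were set to it. The actin 3' to 5' signal ratio, a measure of RNA integrity, ran from 2.54 to 4.48 over arrays in the 6 h polysomal group and from 1.01 to 11.5 in the 6 h total group, where number 3 gave the 2 highest values, 9.01 and 11.5. It ran up to 4.28 in the 1 h polysomal group, 1.22 to 1.62 in the 1 h total group, 1.07 to 2.73 in the control titled 1hr polysome and 1.58 to 3.88 in the polysomal control. Of 12 skeletal muscle markers 10 were tested, including Ckm and Acta1, and none of the 10 lay at the floor throughout any group. In bulk muscle RNA, fewer cells of a type and less RNA per cell cannot be told apart.

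Immediate early genes are transcribed within minutes of a stimulus from factors already present in the cell, without new protein synthesis. Their messages are short-lived. Egr1 and Egr2 are zinc finger factors that bind GC-rich sites, and serum response factor at CArG boxes and CREB at cyclic AMP response elements are known to drive such genes. The Nr4a proteins are orphan nuclear receptors that bind the NBRE element; in muscle Nr4a1 and Nr4a3 are known as genes induced by adrenergic signalling and exercise that act on glucose and fat metabolism. Klf6 is a Krüppel-like zinc finger factor known for induction in tissue injury.

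Promoter windows, 250 bases before to 50 bases after the gene start, were read from the RefSeq table for GRCr8, which matched 5 of the 6 genes; Nr4a3 is named only. Those of Egr1 and Egr2 are shown because these genes had the most alike profiles among the 6, and those of Nr4a1 and Klf6 because theirs ran most opposite. Letters run 5′ to 3′ on the gene's strand and capitals mark motif matches on either strand.
Egr1 (GRCr8, chr18:26736828-26737127, plus strand): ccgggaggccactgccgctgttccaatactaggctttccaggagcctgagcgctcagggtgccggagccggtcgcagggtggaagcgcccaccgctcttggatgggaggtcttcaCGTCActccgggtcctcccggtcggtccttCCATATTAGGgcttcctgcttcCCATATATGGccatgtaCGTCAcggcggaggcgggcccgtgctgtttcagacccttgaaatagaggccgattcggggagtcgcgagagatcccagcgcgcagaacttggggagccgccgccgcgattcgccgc
Egr2 (GRCr8, chr20:21054392-21054691, minus strand): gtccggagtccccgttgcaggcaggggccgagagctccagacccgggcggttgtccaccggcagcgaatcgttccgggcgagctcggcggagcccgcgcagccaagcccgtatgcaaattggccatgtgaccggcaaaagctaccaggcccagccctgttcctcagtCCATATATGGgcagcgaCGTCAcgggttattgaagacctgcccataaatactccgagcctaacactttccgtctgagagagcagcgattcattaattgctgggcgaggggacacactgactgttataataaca
Nr4a1 (GRCr8, chr7:134259888-134260187, plus strand): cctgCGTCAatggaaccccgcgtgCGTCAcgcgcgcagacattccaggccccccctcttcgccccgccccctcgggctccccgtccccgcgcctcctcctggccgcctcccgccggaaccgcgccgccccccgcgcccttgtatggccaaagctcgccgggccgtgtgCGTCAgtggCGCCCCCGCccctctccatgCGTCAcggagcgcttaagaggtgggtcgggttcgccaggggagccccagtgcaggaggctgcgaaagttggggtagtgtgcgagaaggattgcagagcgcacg
Klf6 (GRCr8, chr17:69458429-69458728, minus strand): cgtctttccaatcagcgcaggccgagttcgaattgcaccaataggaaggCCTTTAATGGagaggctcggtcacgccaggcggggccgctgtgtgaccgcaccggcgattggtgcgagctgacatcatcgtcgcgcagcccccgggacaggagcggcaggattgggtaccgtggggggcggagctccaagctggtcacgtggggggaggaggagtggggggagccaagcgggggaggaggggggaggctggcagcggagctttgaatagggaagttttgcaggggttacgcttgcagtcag

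The motifs searched were the CArG box, the CRE (TGACGTCA), its short form (TGACG), the Egr site (GCGGGGGCG), its short form (GCGGGCG) and the NBRE (AAAGGTCA). The CRE contains the short CRE, and no printed matches overlap. Egr1 held 2 CArG boxes, whose first bases lie 105 and 83 bases before the start, and Egr2 held 1, also 83 bases before the start. Both genes also had a short CRE 66 bases before the start, and Egr1 a second one at 135. Klf6 held 1 CArG box 201 bases before the start, and Nr4a1 held 4 short CREs, at 246, 226, 82 and 53 bases, and 1 Egr site at 73. The unprinted window of Nr4a2 held 1 short CRE, 8 bases before the start. Of all 33469 windows of this length, 1.64% held a CArG box, 21.2% a short CRE, 2.73% the Egr site, 9.2% the short Egr site, 1.83% the CRE and 1.43% the NBRE. The CRE, the short Egr site and the NBRE had no match in the 5 windows. A match is a description of letters and not of a bound site.

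The 6 early factors were first set against control muscle on polysomes at 6 h. By limma's test, 0 of 6 genes passed an adjusted p of 0.05, where 0.343% of the 6707 probe sets passed, and 3 of 6 had an unadjusted p under 0.05, where 5.67% of probe sets had one. In 4 of 6 genes (Egr1, Egr2, Nr4a3 and Klf6) every 6 h polysomal number was higher than every polysomal control number, where 2.64% of probe sets separated that way. With the number as a replicate block, Egr1 and Nr4a3 rose, 2 of 6 genes where 0.492% of probe sets passed. Same-numbered samples of the 6 h polysomal group and the polysomal control deviated together. In numbers 1 and 2 of both groups, 1 of the 2 arrays had a lower GAPDH 3' to 5' signal ratio. It was 0.416 and 0.0702 in the 6 h polysomal group and 0.0742 and 0.0374 in the polysomal control. The other array had 1.30 and 0.561 in the first group and 0.511 and 0.363 in the second. The part of this in the shared deviations was not tested. The block also spanned 6 h total RNA, where deviations of same-numbered samples correlated with the polysomal control at only -0.03 to 0.25.

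**Figure D1:**
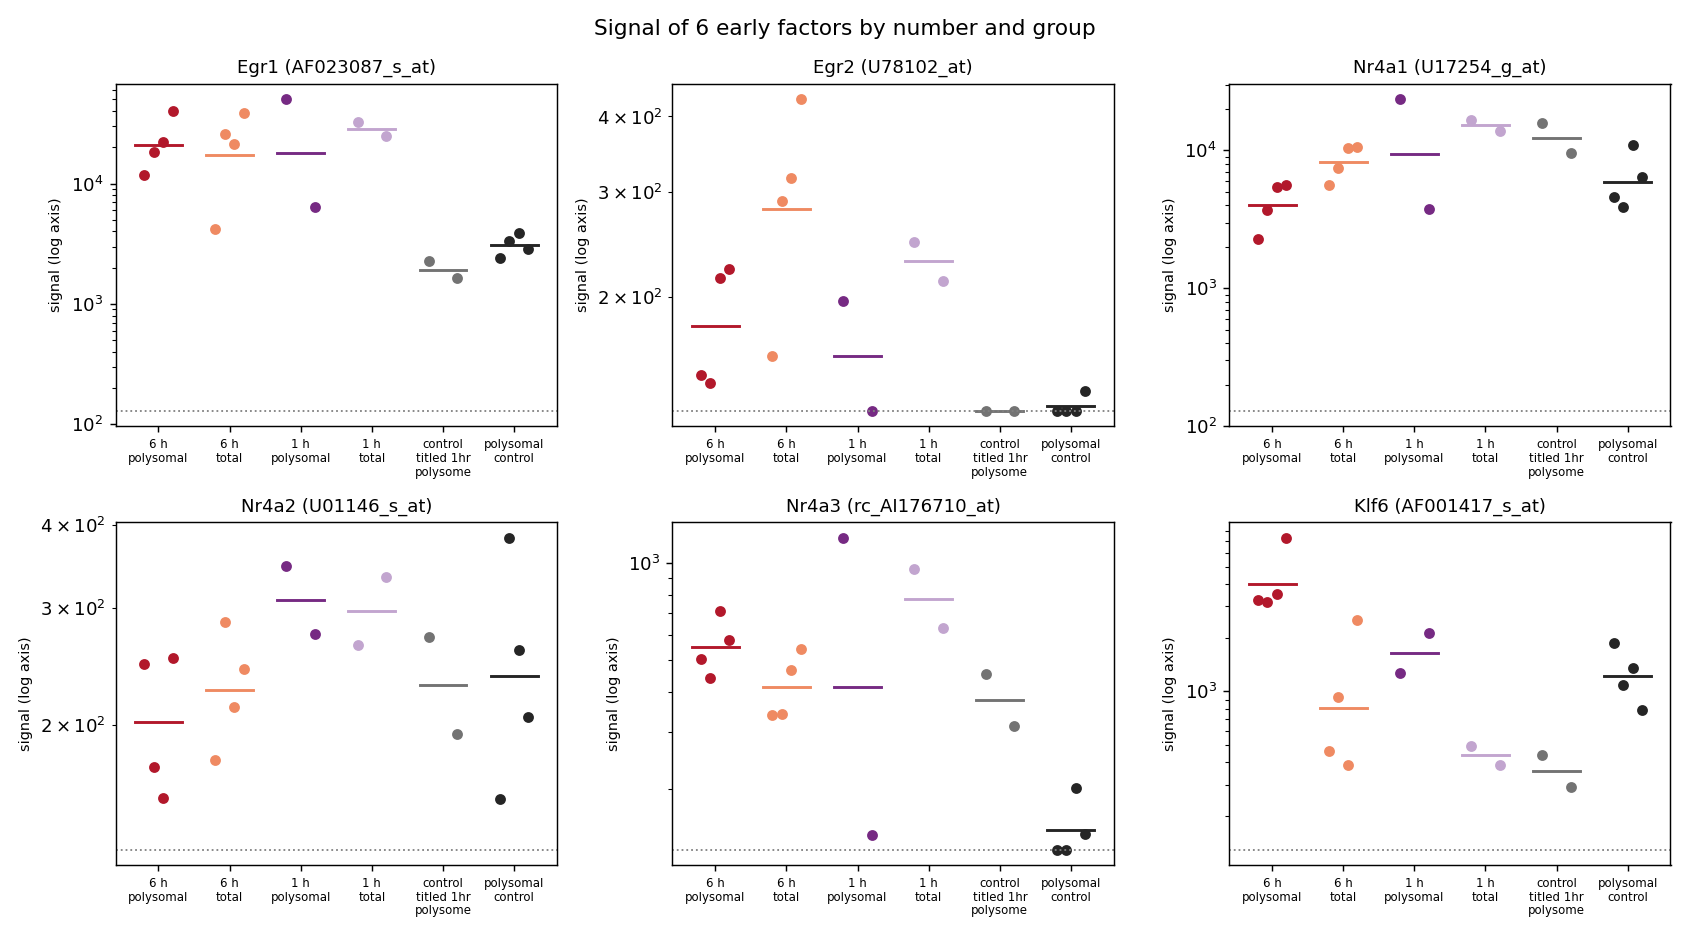
Signal (log axis) of the 6 genes, each by its brightest probe set, in 6 groups. Points are numbers (2 or 4 a group, each the mean of 2 arrays on the log2 scale), bars are geometric means and the dotted line is the floor of 129.5. Klf6 in the 6 h polysomal group, between 3157 and 7271, lies above every number of the other groups, and Egr1 in every exercised group lies above both controls.

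Egr1, a growth factor and stress induced activator, had signals of 11744, 18238, 22005 and 40013 in the 6 h polysomal numbers, against 2402, 3303, 3874 and 2871 in the polysomal control. Every exercised number lay above every control number. The log2 change was 2.77 (SE 0.65, n = 4 each), a fold of 6.80, with a limma adjusted p of 0.113 and, with the replicate block, 0.0288.

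The other Egr1 probe sets did not all follow it. For M18416_at the log2 change was 3.04 (SE 0.84, limma adjusted p = 0.201) and for rc_AI176662_s_at it was 2.33 (SE 0.85, adjusted p = 0.541), both without overlap between the groups. For U75398_s_at it was 0.11 (SE 0.35, adjusted p = 1), with 308.7 to 494.3 in the 6 h polysomal numbers and 328.3 to 468.2 in the polysomal control. Over the 18 numbers the first 3 probe sets correlated with each other at r = 0.92 to 0.98 and U75398_s_at with them at 0.45 to 0.67, as descriptions over samples that share groups and scaling.

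**Figure D2:**
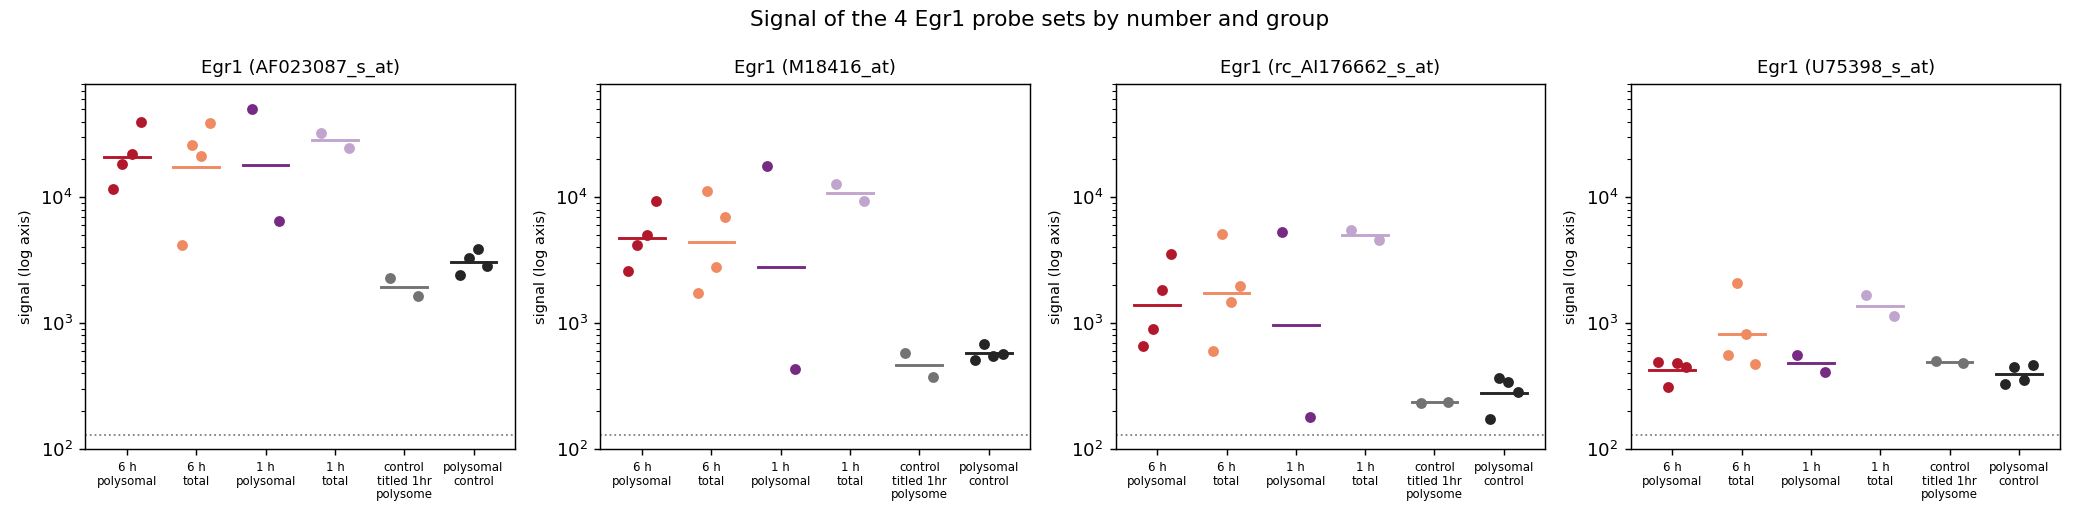
Signal (log axis, one range for all panels) of the 4 Egr1 probe sets in 6 groups. Points are numbers, bars geometric means, and the dotted line is the floor. In U75398_s_at the 6 h polysomal numbers, 308.7 to 494.3, overlap the polysomal control, which the other 3 probe sets do not.

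Nr4a3, also known as NOR-1 and an exercise-responsive receptor in muscle, had signals of 504.3, 441.4, 710.9 and 579.5 in the 6 h polysomal numbers. In the polysomal control 2 numbers were at the floor and the others were 201.0 and 144.2. The log2 change was 1.89 (SE 0.45, n = 4 each; limma adjusted p = 0.123, and 0.0322 with the replicate block). The groups did not overlap. Only 3 of 8 polysomal control arrays were above the floor, so the size of the change depends on it, and with the floor at the 20th percentile of signals it was 2.51 (adjusted p = 0.0688). The change also depended on the control and the probe set. Over the control titled 1hr polysome it was 0.55 (adjusted p = 0.875). Taken as the mean of the Nr4a3 probe sets, it was 0.80 over the polysomal control (adjusted p = 0.527). The second probe set, X86003_at, had 187.0 to 299.8 in the 6 h polysomal numbers and 136.7 to 208.2 in the polysomal control, which overlap, with a log2 change of 0.53 (SE 0.46, adjusted p = 1). The third, rc_AI145834_at, was above the floor on 10 of 36 arrays and its change was -0.02 (SE 0.13).

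Klf6 had signals of 3241, 3157, 3529 and 7271 in the 6 h polysomal numbers, against 1873, 1093, 1354 and 791.5 in the polysomal control. The lowest of the first lay above the highest of the second. The log2 change was 1.73 (SE 0.49; limma adjusted p = 0.217, and 0.249 with the replicate block). Egr2, a zinc finger factor related to Egr1 and known for its role in Schwann cell myelination, was near the floor. It had 148.7, 143.9, 215.1 and 223.0 in the 6 h polysomal numbers, while 3 of the 4 polysomal control numbers were at the floor and number 4 was 139.7, with a change of 0.44 (SE 0.25, adjusted p = 1).

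For Nr4a1 and Nr4a2 the 6 h polysomal numbers overlapped the polysomal control. Nr4a1, also known as Nur77, had 2273, 3689, 5432 and 5650 in the 6 h polysomal numbers, against 4576, 3908, 10911 and 6373 in the polysomal control. Nr4a1 was lower in the 6 h polysomal sample of all 4 same-numbered pairs, and by U17254_at in 3 of 4. The log2 difference was -0.57, with a 95% interval of -1.61 to 0.47 (limma adjusted p = 1, and 0.913 with the replicate block), and that of its second probe set U17254_at was -0.28 (SE 0.44). Nr4a2, also known as Nurr1 and best known in dopamine neurons, had 155.2 to 252.1 in the 6 h polysomal numbers and 154.2 to 382.6 in the polysomal control. Its difference was -0.23, with an interval of -0.79 to 0.33. Its other probe set, L08595_at, exceeded the floor on 9 of 36 arrays.

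The 1 h response in total RNA was measured from the control titled 1hr polysome, whose title and description differ on the fraction. No gene passed limma's test, 0 of 6, where 0.0745% of probe sets passed, and 2 of 6 had an unadjusted p under 0.05, where 11.1% had one. All 6 had log2 changes above 0, where 53.7% of probe sets did. Egr1, Egr2 and Nr4a3 were higher in both exercised numbers than in both control numbers, where 27.7% of probe sets separated that way.

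Egr1 had signals of 32682 and 24819 in 1 h total RNA, against 2286 and 1633 in the control titled 1hr polysome. Its log2 change was 3.88 (SE 0.92, n = 2 each), a fold of 14.7, with a limma adjusted p of 0.144. All 3 other Egr1 probe sets were also higher without overlap, by 4.55 (SE 1.19) for M18416_at, 4.42 (SE 1.201) for rc_AI176662_s_at and 1.49 (SE 0.50) for U75398_s_at. The lowest adjusted p among these 3 was 0.193. U75398_s_at had 1675 and 1137 in 1 h total RNA, 502.3 and 479.9 in the control titled 1hr polysome, and 563.8 and 413.5 in 1 h polysomal RNA.

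The Nr4a probe sets disagreed in size at 1 h. Nr4a3 had 958.6 and 630.6 in 1 h total RNA and 452.5 and 313.3 in the control titled 1hr polysome, a log2 change of 1.05 (SE 0.64, limma adjusted p = 0.593). Its second probe set, X86003_at, had 1575 and 1614 in 1 h total RNA and 231.3 and 175.9 in the control, a change of 2.98 (SE 0.65, adjusted p = 0.111). The first was 2.06-fold and the second 7.91-fold higher, both without overlap.

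Nr4a1 had 16666 and 13842 in 1 h total RNA, against 15849 and 9651 in the control titled 1hr polysome, which overlap. The log2 change was 0.30 (SE 0.69), while U17254_at had 9079 and 7275 in 1 h total RNA and 2974 and 2096 in the control, without overlap, a change of 1.70 (SE 0.62, limma adjusted p = 0.318). Egr2 had 247.6 and 212.9 in 1 h total RNA and was at the floor on all 4 arrays of the control titled 1hr polysome, so it was at least 1.77-fold higher (adjusted p = 0.392). The changes of Klf6, 0.29 (SE 0.69), and Nr4a2, 0.37 (SE 0.37), were within about 1 standard error of 0.

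With the polysomal control in place of the control titled 1hr polysome, Egr1 in 1 h total RNA was higher by 3.22 (limma adjusted p = 0.026) and Nr4a3 by 2.39 (adjusted p = 0.0204), 2 of 6 genes where 8.41% of probe sets passed. This sets total against polysomal RNA, and time and fraction cannot be told apart in it. The controls themselves differed for some genes. Klf6 had 440.1 and 291.2 in the control titled 1hr polysome and 791.5 to 1873 in the polysomal control, a log2 difference of -1.77 (SE 0.60). Nr4a3 had 452.5 and 313.3 in the control titled 1hr polysome and at most 201.0 in the polysomal control, a difference of 1.34 (SE 0.56). Neither passed limma's test (adjusted p = 0.812 and 0.89), and 0% of probe sets did, while 2 of 6 genes had an unadjusted p under 0.05, where 5.47% of probe sets had one. Without overlap 1 of 6 genes was higher in the control titled 1hr polysome, where 11% of probe sets were, and 2 of 6, Egr1 and Klf6, were lower, where 6.89% were.

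**Figure D3:**
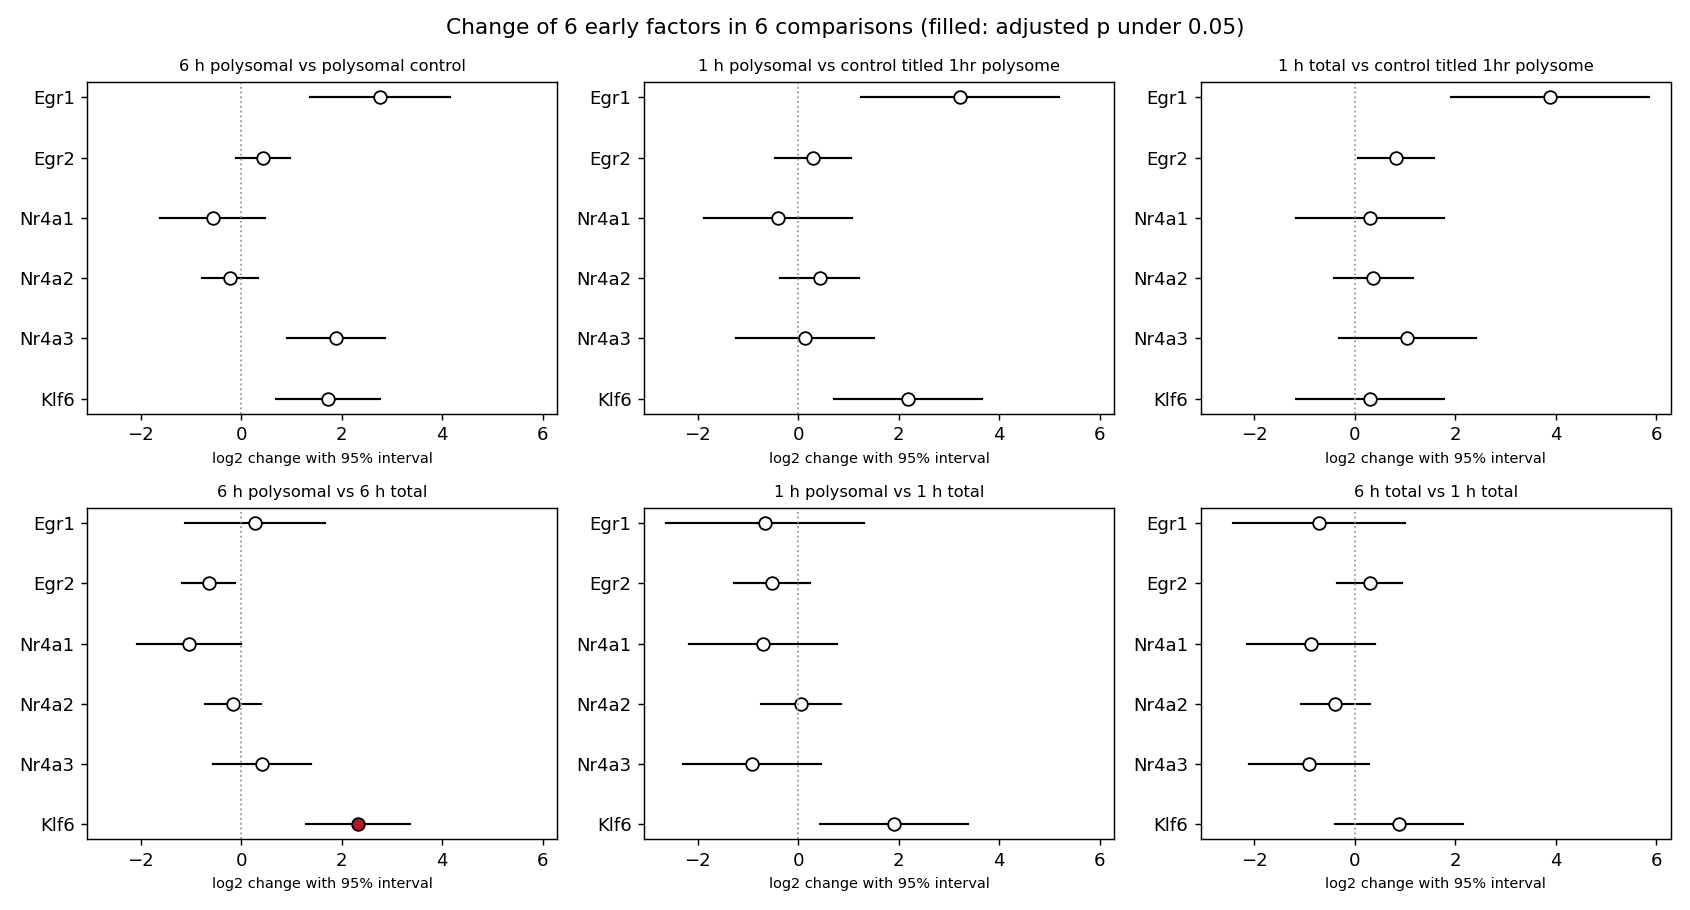
Log2 change of the 6 genes (brightest probe sets) with its 95% interval in 6 comparisons, the group named first over the group named second. A filled point has a limma adjusted p under 0.05. Only Klf6 in 6 h polysomal against 6 h total RNA, at 2.32, is filled.

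Both 1 h comparisons share their control samples. On polysomes at 1 h, 0 of 6 genes passed limma's test against the control titled 1hr polysome, where 0% of probe sets passed, and 2 of 6 had an unadjusted p under 0.05, where 4.46% of probe sets had one. Egr1, Nr4a2 and Klf6, 3 of 6, were higher without overlap, where 12.7% of probe sets were. Klf6 had signals of 1269 and 2121 in the 1 h polysomal numbers, against 440.1 and 291.2 in the control titled 1hr polysome. Its log2 change was 2.20 (SE 0.69, adjusted p = 0.99), without overlap. With the polysomal control, at 791.5 to 1873, in place of that control the Klf6 change was 0.43, with overlap. The labels leave the fraction of the control titled 1hr polysome unsettled, so response and fraction cannot be told apart in the larger value. Egr1 had 50213 and 6442 in the 1 h polysomal numbers and 2286 and 1633 in the control titled 1hr polysome. Its change was 3.22 (SE 0.92, adjusted p = 0.737). The other 4 genes had changes of -0.40 (Nr4a1) to 0.43 (Nr4a2).

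The 2 numbers of the 1 h polysomal group stood apart for these genes. Number 1 was 7.79-fold higher than number 2 for Egr1 and 40.7-fold and 29.8-fold higher for M18416_at and rc_AI176662_s_at. The M18416_at signals on the 2 arrays of number 2 themselves differed 6.10-fold. Number 1 was 6.29-fold higher for Nr4a1 (23494 and 3738). For Nr4a3 it was at least 8.36-fold higher (1199 and 143.3), with 1 array of number 2 at the floor. In all, 7 of the 13 probe sets were at least 4-fold higher in number 1, against 0.567% of all tested probe sets. None of the 13 differed 4-fold between the numbers in 1 h total RNA or in the control titled 1hr polysome. Klf6 ran the other way, 1.67-fold higher in number 2. With 2 numbers this is a description of these samples. The actin 3' to 5' ratio also differed, at 2.003 and 2.44 on the arrays of number 1 and 4.28 and 3.59 on those of number 2, and its part was not tested.

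Markers of other cells also differed between those numbers. The 9 tested of 15 macrophage markers summed to 6345 in number 1 and 14099 in number 2, and the 4 tested of 6 neutrophil markers to 532.9 and 1772. The 10 tested of 12 skeletal muscle markers summed to 172049 in number 1 and 101787 in number 2. In the same order, adipocyte markers summed to 5758 and 8827 and nerve and Schwann cell markers to 1290 and 1956. Fibroblast markers summed to 41672 and 47589.5, endothelium and smooth muscle markers to 5467 and 4710, and red cell markers to 32069 and 31250. Itgam, Ccr2, the neutrophil marker Mmp8 and the nerve and Schwann cell marker Nefl were at the floor in both numbers. The neutrophil sum of 532.9 in number 1 was close to the lowest possible, that of 4 markers at the floor. The part of these cells in the difference was not tested.

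**Figure D4:**
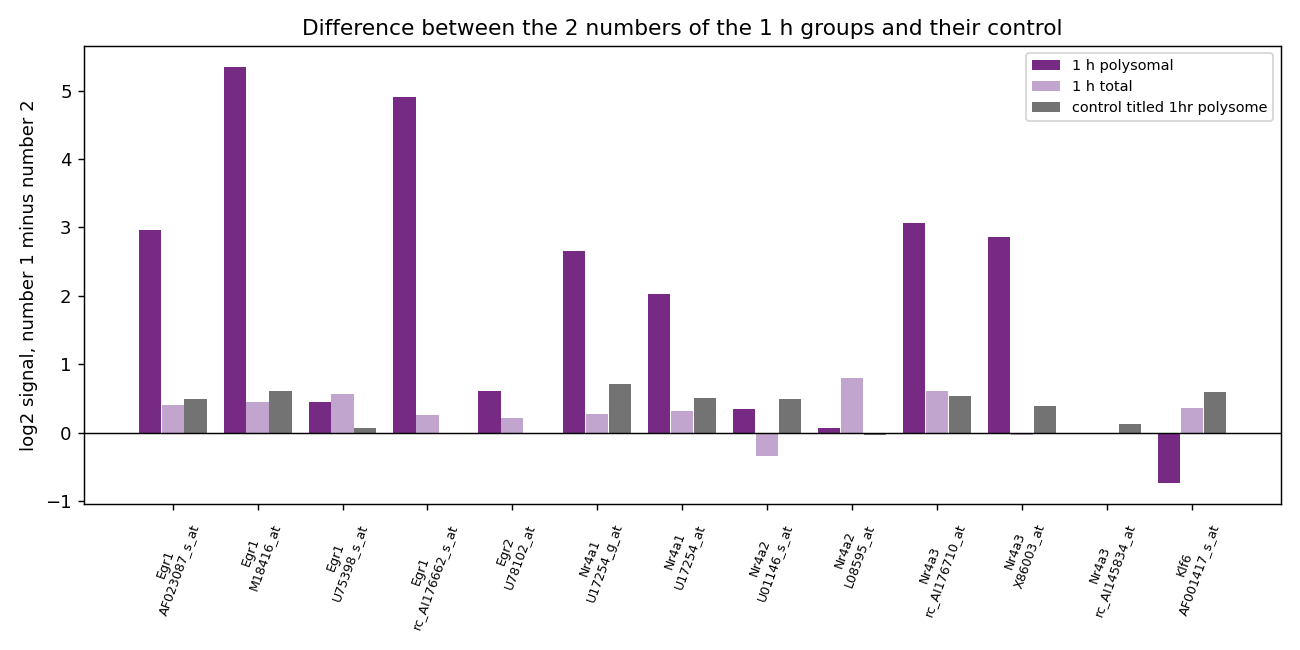
Log2 signal of number 1 minus number 2 for the 13 probe sets in 1 h polysomal RNA, 1 h total RNA and the control titled 1hr polysome. Bars start at 0. In 1 h polysomal RNA 7 probe sets of Egr1, Nr4a1 and Nr4a3 exceed 2 on this scale, the highest at 5.35, and no bar of the other groups reaches 1. The highest is M18416_at, whose 2 arrays of number 2 differed 6.10-fold.

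The series allows polysomal RNA to be set against total RNA of the same time, a question of ribosome loading. At 6 h 8.77% of the 6707 probe sets passed limma's test in either direction, 253 higher and 335 lower on polysomes. The split was 323 to 169 with quantile normalization and 331 to 157 with scaling to the 75th percentile, and the median log2 difference of all probe sets was -0.16 as deposited and -0.04 after quantile normalization. Of the 6 genes 1 passed, Klf6, which rose, where 3.77% of probe sets rose. It was also the only one of the 6 higher without overlap, where 4.64% of probe sets were, and 3 of 6 had an unadjusted p under 0.05, where 26.5% had one. The rest had differences of -1.04 (Nr4a1) to 0.41 (Nr4a3).

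Klf6 had signals of 3241, 3157, 3529 and 7271 in 6 h polysomal RNA, against 463.1, 931.7, 387.6 and 2517 in 6 h total RNA. The fractions did not overlap. The log2 difference was 2.32 (SE 0.49, n = 4 each), with a limma adjusted p of 0.0114. It was between 1.97 and 2.87 when 1 number was left out at a time, with an adjusted p of 0.0358 at most, and 1.97 (adjusted p = 0.028) without number 3 of total RNA, the one with the high actin ratio. It did not pass in a fit of these 2 groups alone (adjusted p = 0.0933) or of numbers 3 and 4 alone (2.36, adjusted p = 0.135).

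Markers of other cells were summed in the same groups. The 9 tested of 15 macrophage markers summed to 7701 to 19575 in 6 h polysomal RNA, 5528 to 9417 in 6 h total RNA and 6393 to 9969 in the polysomal control. Ccr2 was at the floor throughout the 6 h polysomal group and Itgam throughout the 6 h total group. Of these 9 none passed in 6 h polysomal against 6 h total RNA, with a median log2 difference of 0.10. The 3 tested of 5 adipocyte markers summed to 5716 to 10407 in 6 h polysomal RNA, 6123 to 6655 in 6 h total RNA and 7208 to 11137 in the polysomal control. Their median difference between the fractions at 6 h was 1.05, and 1 of the 3 rose, Fabp4, a fatty acid binding protein (1.39, SE 0.38, limma adjusted p = 0.0378). The 4 tested of 6 neutrophil markers summed to 525.4 to 1578 in 6 h polysomal RNA, 543.0 to 868.8 in 6 h total RNA and 553.1 to 1343 in the polysomal control, with none called and a median of 0.51. The lowest neutrophil sums, 525.4, 543.0 and 553.1, were close to the lowest possible, that of 4 markers at the floor. The other marker lists had negative medians in this contrast, beside -0.16 over all probe sets. They were -0.39 for skeletal muscle, -0.36 for fibroblast and -0.23 for nerve and Schwann cell. Endothelium and smooth muscle had -0.08 and red cell -0.05. Of the tested markers 1 of 10 for skeletal muscle and 1 of 3 for red cell fell, where 8.77% of probe sets passed in either direction. The part of any of these cells in the Klf6 difference was not tested.

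At 1 h, Klf6 was again above total RNA on polysomes, with 1269 and 2121 in polysomal RNA and 496.9 and 387.6 in total RNA. The log2 difference was 1.90 (SE 0.69, limma adjusted p = 0.188), and 0 of 6 genes passed, where 0.388% of probe sets did; 1 of 6 had an unadjusted p under 0.05, where 15.8% of probe sets had one. Without overlap, Klf6 was higher, where 19.1% of probe sets were, and Egr2 was lower, where 29.6% were. The difference between the 6 h and 1 h polysomal to total contrasts was 0.42 for Klf6, with a 95% interval of -1.38 to 2.22, so no change in loading between the times was detectable. None of the 6 passed in that comparison, where 0% of probe sets passed, and 0 of 6 had an unadjusted p under 0.05, where 5.55% had one.

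Nr4a1 and Egr2 had lower signal on polysomes than in total RNA at 6 h, without passing. Nr4a1 had 2273 to 5650 in 6 h polysomal RNA and 5620 to 10656 in 6 h total RNA, overlapping by a single pair of values, with a log2 difference of -1.04 (SE 0.49, limma adjusted p = 0.188). Egr2 had 143.9 to 223.0 in polysomal and 159.8 to 427.4 in total RNA, a difference of -0.65 (SE 0.25, adjusted p = 0.113). Without number 1 of total RNA it was -0.92 (adjusted p = 0.0198). Egr1 had 4184, 25868, 21398 and 38828 in 6 h total RNA, which overlapped the polysomal numbers, with a difference of 0.27 and an interval of -1.13 to 1.66.

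Probe sets that read 1 gene differed in this contrast too. For Egr1, U75398_s_at had 308.7 to 494.3 in 6 h polysomal and 475.0 to 2072 in 6 h total RNA, a log2 difference of -0.95 (SE 0.35, limma adjusted p = 0.102). At 1 h it was -1.51 (SE 0.50, adjusted p = 0.156) without overlap, beside -0.66 (SE 0.92) for AF023087_s_at. X86003_at of Nr4a3 was -2.03 (SE 0.65, adjusted p = 0.15) and U17254_at of Nr4a1 -2.005 (SE 0.62, adjusted p = 0.141) at 1 h. Both were lower in each 1 h polysomal number than in each 1 h total number.

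The direction turned with the 1 h polysomal number for Egr1, Nr4a1 and Nr4a3. Egr1 in polysomal against total RNA at 1 h was -2.14 (limma adjusted p = 0.332) without polysomal number 1 and 0.82 (adjusted p = 0.863) without number 2. Polysomal against total RNA at 1 h, Nr4a3 differed by -0.91 (SE 0.64) over both numbers, by -2.44 (limma adjusted p = 0.00784) without polysomal number 1 and by 0.62 (adjusted p = 0.621) without polysomal number 2. Nr4a1 differed by -0.70 (SE 0.69) over both and by 0.63 without polysomal number 2. Between 6 h and 1 h polysomal RNA, Nr4a3 differed by 0.41 (SE 0.56) over all numbers and by 1.94 (adjusted p = 0.0284) without number 1 at 1 h.

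Between 6 h and 1 h in total RNA, 0 of 6 genes passed limma's test, where 0.0596% of probe sets passed, and none had an unadjusted p under 0.05, where 7.71% of probe sets had one. Nr4a1 and Nr4a3, 2 of 6, were lower at 6 h without overlap, where 5.87% of probe sets were. Among the further probe sets, X86003_at of Nr4a3 had 323.7, 350.6, 460.8 and 153.8 at 6 h, against 1575 and 1614 at 1 h. The log2 difference was -2.41 (SE 0.56, adjusted p = 0.407). U17254_at of Nr4a1 had 966.5 to 3841 at 6 h and 9079 and 7275 at 1 h, a difference of -1.83 (SE 0.54, adjusted p = 0.472). Both sets of numbers were lower at 6 h without overlap. Egr1 was at 4184 to 38828 at 6 h and 24819 and 32682 at 1 h, overlapping, with a difference of -0.72 (SE 0.80).

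On polysomes, 6 h against 1 h, 0 of 6 passed, where 0% of probe sets did, and 1 of 6 had an unadjusted p under 0.05, where 5.46% had one. Without overlap 1 of 6 was higher, where 4.34% of probe sets were, and 1 of 6, Nr4a2, was lower, where 8.75% were. Klf6 was higher at 6 h without overlap (3157 to 7271 at 6 h, 1269 and 2121 at 1 h), by 1.30 (SE 0.60, limma adjusted p = 0.902). Nr4a1 differed by -1.23 (SE 0.60, adjusted p = 0.939). When each response was taken against its own control, the 6 h response on polysomes minus the 1 h one was 1.75 for Nr4a3 (SE 0.79; 3.28 without 1 h polysomal number 1 and 0.22 without number 2) and between -0.65 and 0.14 for the other 5. Every adjusted p there was 1, and 0% of probe sets passed. An unadjusted p under 0.05 was found for 1 of 6, Nr4a3, and for 2.58% of probe sets.

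Each gene had its own order of levels over the groups. For Egr1 the geometric mean was 28480 in 1 h total, 20839 in 6 h polysomal, 17986 in 1 h polysomal and 17317 in 6 h total RNA, neighbours that overlap, and then 3065 in the polysomal control and 1932 in the control titled 1hr polysome, each below the group before it without overlap. For Klf6 it was 4026 in 6 h polysomal RNA, without overlap with the next, then 1640 in 1 h polysomal RNA, 1217 in the polysomal control, 805.5 in 6 h total, 438.9 in 1 h total and 358.0 in the control titled 1hr polysome, where each neighbour overlaps. The 3 highest groups for Klf6 are thus all polysomal. The lowest is the control titled 1hr polysome, whose fraction the labels leave unsettled.

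For Nr4a3 the order was 1 h total (777.5), 6 h polysomal (550.3), 1 h polysomal (414.4), 6 h total (413.2) and control titled 1hr polysome (376.5), where neighbours overlap. The polysomal control (148.5) came last, without overlap with the control titled 1hr polysome. It reached 201.0 and so overlapped 1 h polysomal RNA, where number 2 was 143.3. For Nr4a1 it was 1 h total (15188), control titled 1hr polysome (12368), 1 h polysomal (9371), 6 h total (8245), polysomal control (5938) and 6 h polysomal (4005). For Egr2 it was 6 h total (281.0), 1 h total (229.6), 6 h polysomal (179.0), 1 h polysomal (159.7), polysomal control (132.0) and the control titled 1hr polysome at the floor. For Nr4a2 geometric means ran from 202.1 in 6 h polysomal to 308.4 in 1 h polysomal RNA. In these last 3 genes every pair of neighbours overlapped.

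The profiles of the 6 genes were compared over the 18 numbers by Pearson's r of log2 signals, as descriptions over samples that share groups, arrays and scaling. Egr1 ran with Egr2 (r = 0.79) and Nr4a3 (0.76), Egr2 with Nr4a3 at 0.58, and Nr4a1 with Nr4a3 at 0.51. Klf6 ran apart, with r of -0.55 with Nr4a1 and 0.35 with Egr1. Nr4a2 had an r of 0.35 at most with any other member. The windows printed above for Egr1 and Egr2 have a CArG box and a short CRE at the same distances from the start, beside this r of 0.79, and the relation between the letters and the signals was not tested.

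**Figure D5:**
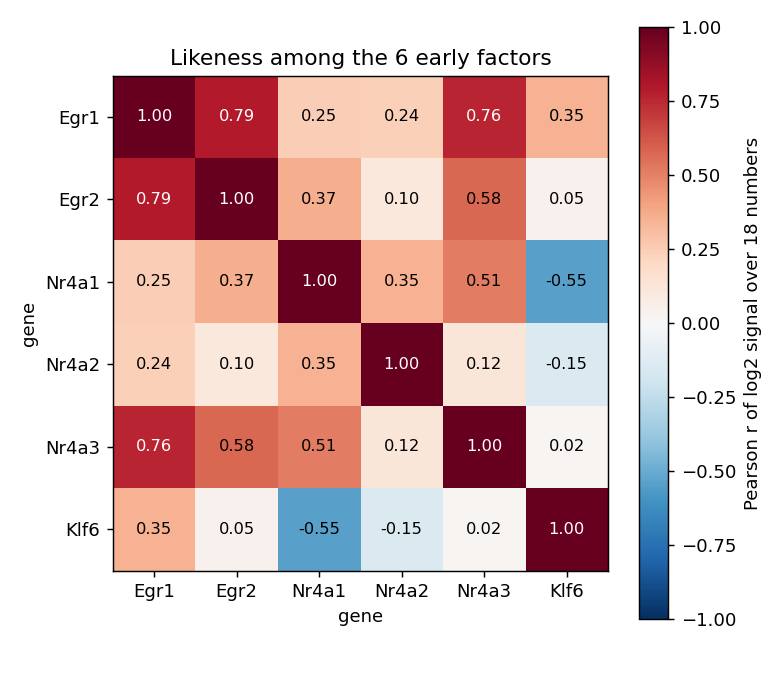
Pearson r of log2 signal between the 6 genes over 18 numbers (rows and columns are genes, colour from -1 to 1). The highest value is 0.79 between Egr1 and Egr2 and the lowest -0.55 between Nr4a1 and Klf6.

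Among the 3902 other tested genes, those most like Egr1 were Fos, the AP-1 subunit (r = 0.94), Atf3, a stress-induced factor (0.92), and Ppp1r15a, a stress-induced phosphatase subunit (0.91). Those most like Nr4a3 were Fos (0.87), Atf3 (0.77) and Egr1 (0.76). Klf6 was most like Srpk2, a kinase of splicing factors (0.86), Coro1a, an actin-binding protein of white blood cells (0.84), and Foxs1, a forkhead factor (0.83). For Egr2 these were Hspa1l, a heat shock protein (0.87), Arc (0.86) and Ces1c (0.83), for Nr4a1 Polb, a DNA polymerase (0.86), Napa (0.79) and Rplp0 (0.77), and for Nr4a2 Sncb (0.76), Trmt6 (0.62) and Slc27a2 (0.61).

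Of 37 other immediate early genes 26 were tested. On polysomes at 6 h against the polysomal control 2 of the 26 rose, where 0.343% of probe sets passed, Atf3 by 4.71 (SE 0.64, limma adjusted p = 0.00385) and Fos by 2.94 (SE 0.58, adjusted p = 0.043), and none fell. The list's median log2 change was 0.47, beside -0.03 over all probe sets. For 1 h total RNA none passed over the control titled 1hr polysome, the median was 0.63 beside 0.03, and Fos at 3.43 (SE 0.82) and Jun at 3.47 (SE 0.86) had the smallest p. On polysomes at 1 h none passed, with a median of 0.27 beside -0.03. In 6 h polysomal against 6 h total RNA only Dusp6, a MAP kinase phosphatase, rose among the 26 (0.97, SE 0.29, adjusted p = 0.048), 1 of 26 where 3.77% of probe sets rose.

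Genes known as targets of these factors were counted next. Of 15 textbook targets of Egr1, 11 were tested. On polysomes at 6 h against the polysomal control 1 rose, the hyaluronan receptor Cd44 (1.96, SE 0.32, limma adjusted p = 0.0154), where 0.343% of probe sets passed, and the list's median was 0.01. In 1 h total RNA 1 rose, where 0.0745% passed, F3, the tissue factor of coagulation (0.98, SE 0.17, adjusted p = 0.0476). In 6 h polysomal against 6 h total RNA the growth factor gene Pdgfa rose by 2.04 (SE 0.25, adjusted p = 0.00113) and Igf2 fell by 0.66 (SE 0.20, adjusted p = 0.0492), 2 of 11 where 8.77% of probe sets passed.

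Of 12 textbook targets of Klf6, 10 were tested, and 1 rose on polysomes at 6 h against the polysomal control, Plaur, the urokinase receptor (2.74, SE 0.43, limma adjusted p = 0.0118), where 0.343% of probe sets passed. None passed in 6 h polysomal against 6 h total RNA, where the list's median was -0.40 and that of all probe sets -0.16. Of 17 sugar and fat metabolism genes tied to Nr4a1 or Nr4a3 in muscle 12 were tested. None passed against the polysomal control at 6 h, with a median of -0.09, and hexokinase Hk2 had the smallest p (1.31, SE 0.41, adjusted p = 0.34). In 6 h polysomal against 6 h total RNA Ucp2, an uncoupling protein, fell by 1.39 (SE 0.30, adjusted p = 0.0141), 1 of 12 where 8.77% of probe sets passed. Of 22 upstream factors and partners 8 were tested, and only Mef2d, a muscle transcription factor, passed in any of these comparisons. It fell by 0.83 (SE 0.15, adjusted p = 0.00535) in 6 h polysomal against 6 h total RNA, 1 of 8 where 8.77% of probe sets passed.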

How the data were processed

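Signals of 8799 probe sets on 36 arrays were analysed in 6 groups of 2 or 4 numbered samples. The deposited values are intensity signals that the authors placed in a single table, with no log taken. How the signals were computed from the scans is not given in the sources used here. Over the 36 arrays 2% trimmed means lay between 801.0 and 801.9, so the values were already scaled, and that scaling was kept; its stated target is unknown. The 59 control probe sets were removed, and a floor of 129.5, the 40th percentile of the remaining table, replaced lower signals before the log2 step. Testing was limited to the 6707 probe sets that exceeded it on 4 or more arrays, with both arrays of a number averaged. Over probe sets, arrays of a number correlated at 0.914 to 0.984 and other pairs at 0.819 to 0.979.

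Contrasts of 1 limma 3.58.1 model in R 4.3.3 over all groups were tested two-sided (lmFit, contrasts.fit, eBayes, 12 residual degrees of freedom), and adjusted by Benjamini-Hochberg across all 6707, with 0.05 as the threshold; the code was tested on simulated data. Of 8740 probe sets 7006 had 1 symbol, and probe sets with several symbols were not named. The replicate block gave each number 1 effect across the 6 h polysomal, 6 h total and polysomal control groups. Numbers of the 1 h groups and the control titled 1hr polysome had effects of their own. Between the 6 h polysomal group and the polysomal control, deviations of same-numbered samples correlated at 0.456, 0.538, 0.444 and 0.431. Each was highest with its own number. Only these groups were read as paired, and the block was not fitted to them alone. Between 6 h total RNA and the polysomal control the correlations were 0.25, 0.12, -0.03 and 0.08. The labels say nothing of what the numbers share. Genes named were the 6, the 3 most alike to each by Pearson's r, and from each list up to 3 called genes or, with none called, the 2 of smallest p. The 6 genes, the lists and these rules were chosen with earlier results of these data known. The number of arrays limits the precision. Alternatives covered scaling, floor, filter, arrays singly, the groups in the fit, each number left out, the replicate block, the other control, subsets of numbers and the mean over probe sets of a gene. Figures were drawn with matplotlib 3.10.9.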

Additional observations from a re-analysis of the deposited data

Results flagged for a closer look

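In groups of 4 numbers, 39 sets of values of the 13 probe sets were examined for a highest or lowest number that stood apart by Dixon's 95% criterion, and 6 had one; chance gives about 1 in 20, a rate that does not hold for the 3 of these sets in which 3 of 4 numbers were at the floor (L08595_at in the 6 h polysomal group and in the polysomal control, and Egr2 in the polysomal control). Klf6 was 7271 in number 4 of the 6 h polysomal group, beside 3157 to 3529 in the other 3. Without that number Klf6 was 2.04 above 6 h total RNA (limma adjusted p = 0.0358). The other 5 lay in groups close to the floor of 129.5: Nr4a2 by L08595_at at 229.3 in 6 h polysomal number 1, at 205.3 in 6 h total number 3 and at 142.2 in polysomal control number 4, Nr4a3 by rc_AI145834_at at 155.9 in 6 h polysomal number 3, and Egr2 at 139.7 in polysomal control number 4.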

How the results depend on the processing

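Of 924 values of 60 results under alternative settings, 900 were counted as unchanged, 18 newly passed, 2 no longer passed and 4 turned. Unchanged values kept their side of the threshold. Of these, 37 lay on the other side of 0, all for results within 1 standard error of 0. Counts of the 6 genes called changed as follows. In 6 h polysomal RNA against the polysomal control the count was 0. It was 2 with arrays entered singly, with only these groups in the fit and with the replicate block. Nr4a3 changed by 0.55 (adjusted p = 0.875) over the control titled 1hr polysome, where the count was 1 (Klf6, 3.49, limma adjusted p = 0.0323). In 1 h total RNA it was 0 against the control titled 1hr polysome, 1 with arrays singly and 1 with the replicate block (Egr1, adjusted p = 0.0448, in groups of 2 numbers that are not shown to be paired), and 2 with the polysomal control. In 6 h polysomal against total RNA it was 1, and 3 with arrays singly, 0 with only these groups, 0 with numbers 3 and 4 alone, and 1 to 2 with a number left out. With a number left out the count ran from 0 to 1 in 1 h polysomal against total RNA, in 6 h against 1 h polysomal RNA and in both differences between 6 h and 1 h, each time through Nr4a3 without 1 h polysomal number 1: -2.44, 1.94, 3.28 for the response (adjusted p = 0.00835) and 2.85 for polysomal against total (adjusted p = 0.0288). With 1 number left out at a time, Nr4a1 ran from -2.02 to 0.63 in 1 h polysomal against total RNA and from -2.55 to 0.10 in 6 h against 1 h polysomal RNA. The turned values came without 1 h polysomal number 2 for Nr4a1 (0.63) and Nr4a3 (0.62) in polysomal against total RNA and for Nr4a3 in its 6 h minus 1 h difference (-0.21), and without number 1 for Nr4a1 between the times (0.10). The cause was not tested; fits of fewer numbers hold fewer samples. Over settings that kept all numbers of the groups compared, probe sets called ran from 8 to 106, 0 to 564 (the last with the polysomal control) and 128 to 882 in these first 3 comparisons, beside 23, 5 and 588; with numbers 1 and 2 alone there were 1 and 1086, and with numbers 3 and 4 alone 0 and 73, in the 6 h comparisons. The replicate block changed no other call. Signals at or near the floor limit Egr2, Nr4a2 and all 3 Nr4a3 probe sets.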

Other observations

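The arrays of a number mostly gave like signals for these genes by their brightest probe sets, with a median fold between them of 1.19 for Egr1, 1.32 for Klf6, 1.14 for Nr4a1 and for Nr4a3, 1.07 for Egr2 and 1.49 for Nr4a2 over 18 numbers. The widest gap was at least 6.81-fold, for Nr4a3 in 6 h total number 1, with 1 array at the floor, and there Egr1 also differed 3.04-fold between the arrays. In number 2 of the control titled 1hr polysome the arrays differed at least 5.06-fold for Klf6, with 1 array at the floor, and 4.25-fold for Egr1. Klf6 also differed 4.46-fold between the arrays of 6 h total number 3, the lowest Klf6 value of that group at 387.6. Nr4a1 differed 1.67-fold at most.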
